A study of Mus musculus with 8 samples.

Results

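The genes described here are 54 genes of DNA replication and origin licensing, listed by their role in the pathway with no measured value in the rule. Each was read from array probe sets that carry its symbol alone, and where several did, from the brightest of them on average. All 54 genes had such a probe set, among 19938 genes so represented in the series, and all 54 lay above the expression filter in all 8 arrays, among 11926 genes tested. RNA of mouse CD4 T cells was hybridised to Affymetrix arrays, 4 arrays labelled wild type (WT) and 4 labelled as a T cell-specific conditional Bcl6-/- (KO). Cells of both genotypes started as naive CD4 T cells and were activated for 24 hours through CD3 and CD28. Blocking antibodies to IL-4, IFNg and TGFb were present in both, as were IL6 and IL21, and the labels give the cell type as follicular helper T (Tfh) cells. The Cre driver, the age and sex of the mice and whether each array came from a separate mouse are not given in the sources used here, so a p-value here reflects sample-to-sample spread that may be technical.

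Eukaryotic cells prepare each replication origin during the first gap phase of the cell cycle. The origin recognition complex (Orc1 to Orc6) marks the site, Cdc6 and Cdt1 load the Mcm2 to Mcm7 helicase on it, and geminin (Gmnn) blocks a second loading by holding Cdt1. In S phase the kinase Cdc7 with Dbf4 turns the helicase on, Cdc45 and the GINS subunits join it, and polymerases, the sliding clamp Pcna and its loader copy the strands. A resting naive T cell has little of this machinery, and activation induces it, largely through E2F transcription factors, before the first division. Bcl6, the deleted gene, is a transcriptional repressor needed for the Tfh fate.

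The T cell markers (6 of 6 on the array) and the activation markers (6 of 6) lay above the filter in all arrays, as did the proliferation markers Mki67 and Top2a. Of B cell, myeloid and NK markers, 1 each of 5, 6 and 4 did, and both CD8 T cell markers did; no erythroid marker had a probe set with its symbol alone. The list mean of the CD8 markers was 8.30 to 8.74 in the WT-labelled and 8.35 to 8.60 in the KO-labelled arrays. The list means in the WT-labelled and KO-labelled arrays were 6.27 to 6.39 and 6.07 to 6.49 for B cells, 6.46 to 6.55 and 6.50 to 6.58 for myeloid cells, and 6.24 to 6.46 and 6.08 to 6.25 for NK cells. The mean of the proliferation markers was 11.98 to 12.08 in the WT-labelled and 12.11 to 12.32 in the KO-labelled arrays, with no overlap. Nkg7, the 1 NK marker above the filter, was 10.05, 10.79, 10.91 and 9.95 in WT and 9.11, 9.55, 9.58 and 9.89 in KO replicates 1 to 4, with no overlap (difference -0.89, limma adjusted p = 0.0947). None of these markers passed the test over 8 arrays; without KO replicate 1 both proliferation markers did, Mki67 at 0.23 (limma adjusted p = 0.0374) and Top2a at 0.25 (0.0163). Their part in the results was not tested. Bcl6 itself was higher in the KO-labelled arrays (9.08 to 9.19, against 8.61 to 8.91; limma adjusted p = 0.0303), on a probe set whose place relative to the deleted part is not known here, so directions are those of the arrays as labelled. KO replicate 1 differed from its group in much of the module, and values without it are given where it moved a result.

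The replication genes differed little between the groups. Of 54 genes, 1 fell in the KO-labelled arrays (Cdt1), none rose and 53 did not pass (limma, Benjamini-Hochberg adjusted p under 0.05 over all tested genes). Over all genes the same test called 1.32%, of which 0.646% were higher and 0.671% lower, so 1 of 54 is near the background. With the arrays centred on their medians, the split over all genes was 48 higher and 30 lower in place of 77 and 80. At an unadjusted limma p under 0.05 there were 7 replication genes, 2 higher and 5 lower, against 16.6% of all genes, 6.15% higher and 10.5% lower. The differences, KO minus WT on the log2 scale, ran from -0.26 to 0.21, with a median of 0.02 against -0.02 for all tested genes. The median size of a difference was 0.0513, next to a median standard error of 0.054. The 95% interval of the difference lay within 0.32 log2 units of 0 for 49 of 54 genes and within 0.58, a 1.5-fold change, for all 54, against 83.3% and 98.4% of all tested genes. In bulk RNA a change in the share of dividing cells cannot be told apart from a change of RNA in each.

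**Figure D1:**
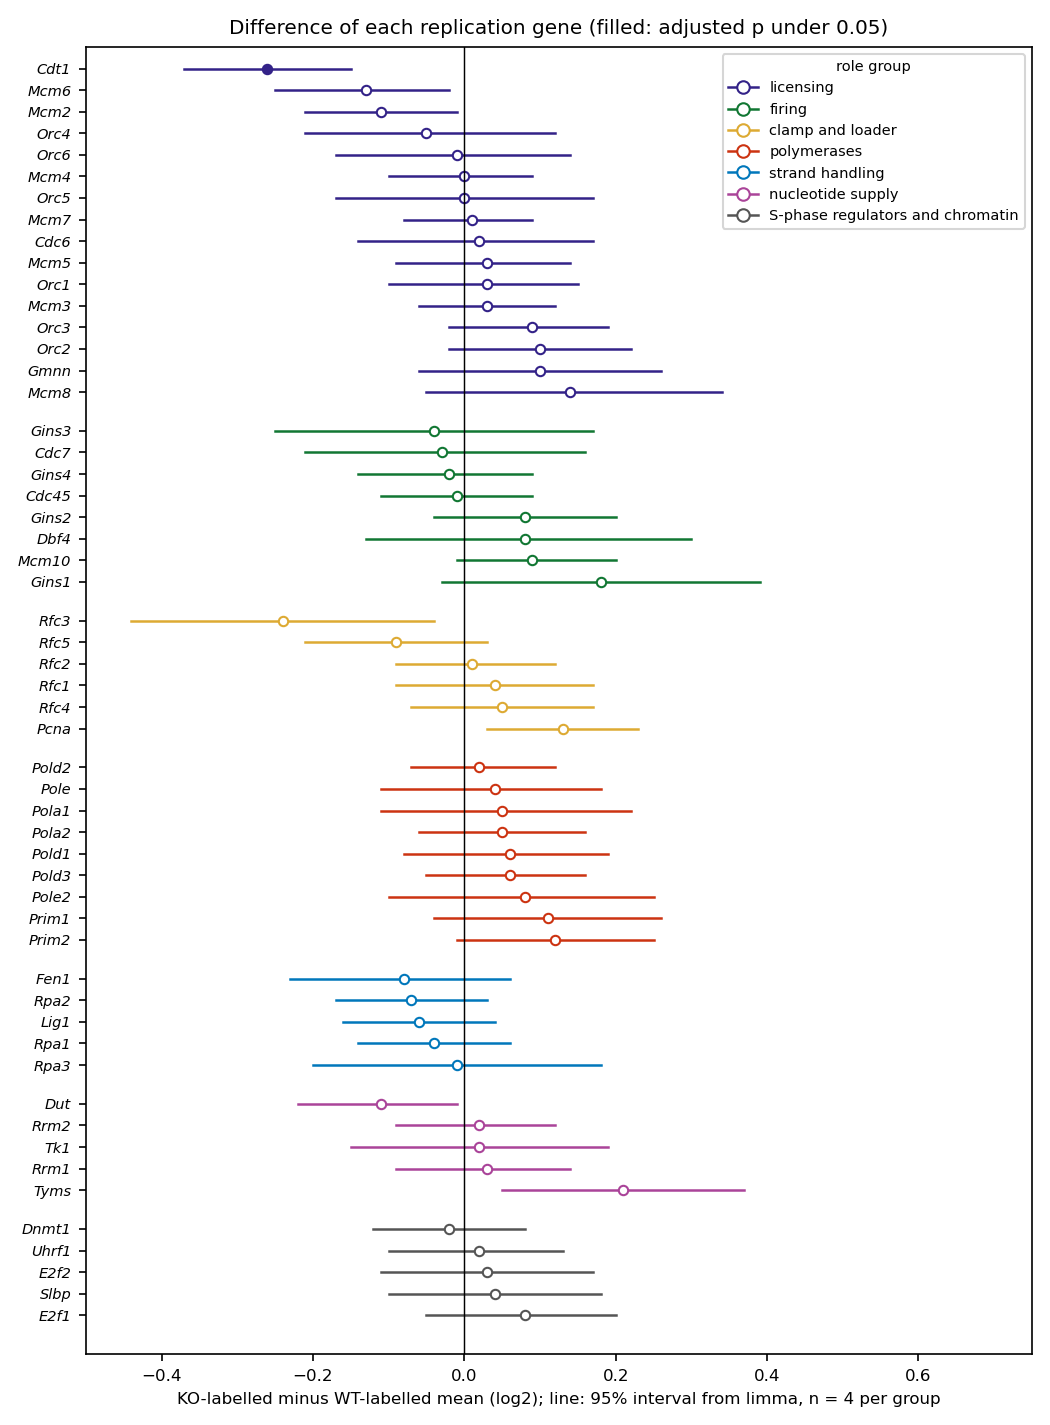
Difference of each of the 54 replication genes between KO-labelled and WT-labelled arrays (log2, x axis), grouped by role and ordered by size; lines are 95% intervals from limma with 4 arrays per group. Cdt1, the filled point at -0.26, is the only gene past the threshold, and the intervals of 49 genes stay within 0.32 log2 units of 0.

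Cdt1 loads the Mcm2 to Mcm7 ring on origins and is destroyed once S phase begins. Its log2 signal was 11.04, 11.04, 11.11 and 11.0 in WT replicates 1 to 4 and 10.70, 10.81, 10.78 and 10.85 in KO replicates 1 to 4. All 4 KO-labelled values lay below all 4 WT-labelled values, and KO replicate 1 was the lowest. The mean fell by 0.26 ± 0.049 on the log2 scale (SE, n = 4 per group; limma adjusted p = 0.0423), a KO level of 0.834 times the WT level, with a 95% interval of -0.37 to -0.15. The exact permutation p was 0.0286, two-sided, the smallest that 4 against 4 arrays can give. The difference was -0.28 to -0.23 whichever array was left out, and with KO replicate 1 left out the call held (-0.23, limma adjusted p = 0.0178). It was lost on leaving out any 1 of the other 7 arrays, with limma adjusted p from 0.0562 without KO replicate 4 to 0.148 without WT replicate 2, with centred arrays (0.0952) and with no expression filter (0.0989).

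Cdt1 and the 4 other replication genes whose groups did not overlap on the deposited scale (Mcm2, Mcm6, Pcna and Dut) have the following 250 bases before their transcription starts in RefSeq (build GRCm38.p6, gene strand, 5′ to 3′). They were chosen by this separation alone. Of the 54 genes, 1 lay above and 4 below, against 3.1% and 7.66% of all tested genes. Capitals mark E2F site letters (TTTCCCGC, TTTGGCGC, TTTCGCGC or TTTGCCGC) and the CHR element letters TTTGAA, searched on both strands. The windows lie at chr8:122567765-122568014 (plus strand, Cdt1), chr6:88898781-88899030 (minus strand, Mcm2), chr1:128359706-128359955 (minus strand, Mcm6), chr2:132253181-132253430 (minus strand, Pcna) and chr2:125247265-125247514 (plus strand, Dut).
Cdt1: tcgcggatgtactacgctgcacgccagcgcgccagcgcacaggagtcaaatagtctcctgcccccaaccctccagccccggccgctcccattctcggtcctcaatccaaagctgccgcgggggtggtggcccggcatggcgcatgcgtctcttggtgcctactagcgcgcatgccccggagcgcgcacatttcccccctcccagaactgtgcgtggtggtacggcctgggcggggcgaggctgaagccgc
Mcm2: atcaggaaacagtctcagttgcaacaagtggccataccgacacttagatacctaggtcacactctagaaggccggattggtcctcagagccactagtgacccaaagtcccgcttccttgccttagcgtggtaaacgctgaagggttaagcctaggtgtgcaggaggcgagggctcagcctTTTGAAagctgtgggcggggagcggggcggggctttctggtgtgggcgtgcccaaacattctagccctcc
Mcm6: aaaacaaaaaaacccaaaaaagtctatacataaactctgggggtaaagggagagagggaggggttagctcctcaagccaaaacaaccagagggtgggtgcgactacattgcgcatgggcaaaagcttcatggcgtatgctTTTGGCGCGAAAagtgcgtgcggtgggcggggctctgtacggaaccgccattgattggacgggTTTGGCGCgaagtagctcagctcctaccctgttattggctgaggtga
Pcna: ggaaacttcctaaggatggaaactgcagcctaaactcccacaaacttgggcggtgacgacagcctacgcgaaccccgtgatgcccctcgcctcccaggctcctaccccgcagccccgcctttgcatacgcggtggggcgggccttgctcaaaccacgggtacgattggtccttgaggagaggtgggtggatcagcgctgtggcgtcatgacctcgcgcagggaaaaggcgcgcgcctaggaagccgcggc
Dut: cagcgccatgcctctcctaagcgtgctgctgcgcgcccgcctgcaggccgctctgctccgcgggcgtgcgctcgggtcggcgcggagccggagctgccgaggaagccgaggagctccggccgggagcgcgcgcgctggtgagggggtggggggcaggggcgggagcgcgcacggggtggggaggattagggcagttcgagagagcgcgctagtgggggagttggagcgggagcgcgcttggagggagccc

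In Mcm6 the first capital run holds TTTGGCGC on the gene strand overlapping TTTCGCGC on the other, and TTTGGCGC occurs again nearer the start. In Cdt1 the E2F letters lie after the start, with 32 bases between the printed window and the letters, in the run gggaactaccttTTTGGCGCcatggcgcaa (chr8:122568035-122568064, plus strand). Mcm2 holds the CHR letters alone, and neither Pcna nor Dut holds any of the motifs searched in this window. Over the module, 46 genes matched the RefSeq promoter table, and windows ran from 250 bases before to 50 after a start. E2F letters stood in 19 of the 46 (41.3%), against 4.8% of tested genes and 2.6% of all genes in the table. Counted by window, they stood in 32.2% of the module's windows and 2.26% of all windows. The CHR letters stood in 9 of 46 (19.6%), against 13.6% of tested genes and 20.2% of all genes in the table. By window the shares were 16.9% in the module and 17.9% in the whole table. Genes with E2F letters had a median difference of 0.03 (19 genes, 13 positive), and those without had 0.02 (27 genes, 15 positive). With the CHR letters the median was -0.02 (9 genes, 3 positive), and without them 0.03 (37 genes, 25 positive). By role, the E2F letters stood in 9 of 14 licensing, 4 of 7 polymerase and 3 of 5 S-phase regulator genes, in 1 of 5 each of the firing, clamp and loader, and strand handling genes, and in none of 5 nucleotide supply genes. The CHR letters stood in 4 of 5 firing genes, 2 of 5 S-phase regulators, 1 gene each of licensing, polymerases and strand handling, and in none of the clamp and loader or nucleotide supply genes. A match is a description of these letters and not a site.

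The Mcm2 to Mcm7 helicase subunits differed by -0.13 to 0.03. Mcm2 was 12.40, 12.45, 12.51 and 12.42 in the WT-labelled and 12.37, 12.33, 12.34 and 12.29 in the KO-labelled arrays, and Mcm6 was 12.10, 12.09, 12.16 and 12.15 against 11.89, 11.97, 12.07 and 12.03. In both genes every KO-labelled array lay below every WT-labelled array on the deposited scale (Mcm2 overlapped after quantile normalization and Mcm6 with centred arrays), by differences of -0.11 (95% interval -0.21 to -0.01) and -0.13 (-0.25 to -0.02) that did not pass (limma adjusted p = 0.241 and 0.222). The other 4 subunits were closer: Mcm3 differed by 0.03, Mcm5 by 0.03, Mcm7 by 0.01 and Mcm4 by less than 0.01, with all 4 intervals between -0.10 and 0.14. The 8 values of Mcm7 lay between 12.59 and 12.64. The subunits act as 1 ring, and on the deposited scale Mcm2 and Mcm6 were the 2 of these 6 that separated by label. Of all tested genes 7.66% separated in this direction.

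Cdc6, the ATPase that recruits Cdt1 to origins, differed by 0.02 (95% interval -0.14 to 0.17), and Gmnn, the inhibitor of Cdt1, by 0.10 (-0.06 to 0.26; limma adjusted p = 0.557). Without KO replicate 1 they differed by 0.08 and 0.16 (limma adjusted p = 0.338 and 0.119). The origin recognition subunits ran from -0.05 (Orc4) to 0.10 (Orc2, limma adjusted p = 0.387), with 3 of 6 above 0. Mcm8 belongs to the family but works with Mcm9 in recombination repair. It was 9.31, 9.47, 9.42 and 9.53 in WT and 9.32, 9.63, 9.68 and 9.68 in KO replicates 1 to 4. KO replicate 1 lay at the bottom of the WT range and the other KO-labelled arrays above it. Over all 8 arrays the difference of Mcm8 was 0.14 ± 0.0858 (SE, limma adjusted p = 0.456), and without KO replicate 1 it was 0.23 ± 0.0555 and passed (limma adjusted p = 0.0405).

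Of the 8 genes of origin firing none passed, and they ran from -0.04 (Gins3, 0.07 without KO replicate 1) to 0.18 (Gins1). Gins1, a subunit of the GINS complex of the active helicase, was 10.39, 10.30, 10.35 and 10.29 in WT and 10.25, 10.42, 10.65 and 10.72 in KO replicates 1 to 4. The KO-labelled values spread over 0.47 log2 units, against 0.10 in the WT-labelled arrays, and the groups overlapped through KO replicate 1. The difference was 0.18 ± 0.0942 (SE, limma adjusted p = 0.395), and 0.26 without KO replicate 1 (limma adjusted p = 0.0513). Mcm10, a scaffold that helps start the helicase, was 10.54, 10.52, 10.52 and 10.61 against 10.55, 10.66, 10.67 and 10.68, a difference of 0.09 (limma adjusted p = 0.38). Dbf4 and Cdc7, the regulatory and catalytic parts of the firing kinase, differed by 0.08 (95% interval -0.13 to 0.30) and -0.03 (-0.21 to 0.16). Without KO replicate 1, Dbf4 differed by 0.19 (0.07 to 0.31, limma adjusted p = 0.0654) and Cdc7 turned to 0.06 (limma adjusted p = 0.543). The KO-labelled values of Dbf4 and Cdc7 spread over 0.46 and 0.44. In both genes KO replicate 1 was the lowest of the 8 arrays, at 10.15 and 9.04. With array weights Gins1, Mcm10 and Dbf4 passed (limma adjusted p = 0.0245, 0.0294 and 0.0402), against 16.6% of all genes. Cdc45, the helicase cofactor, differed by -0.01 (-0.11 to 0.09).

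Pcna, the sliding clamp that tethers polymerases to DNA, was the only replication gene whose KO-labelled arrays all lay above the WT-labelled ones on the deposited scale; with centred arrays none did, and with a further quantile normalization 6 did. Its signal was 13.73, 13.68, 13.68 and 13.65 in WT and 13.74, 13.82, 13.84 and 13.86 in KO replicates 1 to 4, so KO replicate 1 cleared the highest WT value by 0.01. Over the whole module the count was 1 gene above and 4 below (Cdt1, Mcm2, Mcm6 and Dut), against 3.1% and 7.66% of all tested genes. Quantile normalization gave 6 above (Orc2, Gmnn, Mcm10, Pcna, Pola2 and Tyms) and 3 below (Cdt1, Mcm6 and Dut), against 5.79% and 7.22%. Centred arrays gave 0 above and 2 below (Cdt1 and Mcm2), against 2.44% and 5.24%. Of these genes, Cdt1 alone separated under all 3 scalings. The difference of Pcna was 0.13 ± 0.0454 (SE, 95% interval 0.03 to 0.23) and did not pass (limma adjusted p = 0.19; 0.0516 without KO replicate 1). An intensity trend with a robust prior moved it past the threshold (limma adjusted p = 0.0497), as did array weights (0.0163). A second probe set with the symbol gave the same value in 7 of the 8 arrays and 13.72 in WT replicate 1, so it is no independent measure.

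None of the 5 clamp loader genes passed. Rfc3, a small subunit, was 10.81, 10.60, 10.58 and 10.51 in WT and 10.24, 10.30, 10.39 and 10.61 in KO replicates 1 to 4. KO replicate 4 lay among the WT values and the other 3 below all of them. The difference, -0.24 ± 0.0895 (SE, 95% interval -0.44 to -0.04), was nearly as large as that of Cdt1 with a wider spread, and did not pass (limma adjusted p = 0.22). Rfc5 differed by -0.09, Rfc2 by 0.01, Rfc1, the large subunit, by 0.04 and Rfc4 by 0.05, with limma adjusted p from 0.45 to 0.942.

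All 9 polymerase and primase genes had a positive difference, from 0.02 (Pold2) to 0.12 (Prim2), and none passed. The 9 also stayed positive with the arrays centred on their medians, with a further quantile normalization and without KO replicate 1. Over all tested genes 42.1% of differences were positive. The positive differences came from KO replicates 2, 3 and 4, where 9, 8 and 9 of the genes lay above the WT mean. In KO replicate 1 only 1 of 9 did, and genes on the same arrays are not independent. Prim2 and Prim1 encode the primase subunits that lay the RNA primers of DNA synthesis. Prim2 was 11.32, 11.32, 11.29 and 11.38 in WT and 11.31, 11.43, 11.49 and 11.57 in KO replicates 1 to 4, and Prim1 was 11.27, 11.18, 11.16 and 11.21 against 11.13, 11.32, 11.36 and 11.45. In both, KO replicates 2 to 4 lay above every WT-labelled array and KO replicate 1 did not. The differences were 0.12 (limma adjusted p = 0.345) and 0.11 (0.478), and without KO replicate 1 both were 0.17 (0.062 and 0.0628). The polymerase epsilon genes Pole and Pole2 differed by 0.04 and 0.08, and the polymerase delta genes Pold1 and Pold3 by 0.06 each.

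The 5 genes that handle single strands and join fragments all had a negative difference, from -0.08 (Fen1) to -0.01 (Rpa3), and none passed. Over all tested genes 6905 of 11926 differences were negative. With the arrays centred, with a further quantile normalization, or without KO replicate 1, 1 of the 5 turned positive. Rpa2, a subunit of the single-strand binding protein, was 10.76, 10.71, 10.74 and 10.76 in WT and 10.62, 10.69, 10.65 and 10.74 in KO replicates 1 to 4 (difference -0.07, limma adjusted p = 0.514). Lig1, the ligase of Okazaki fragments, was 11.58, 11.55, 11.58 and 11.68 against 11.51, 11.56, 11.53 and 11.54 (difference -0.06, limma adjusted p = 0.562). The groups overlapped in both genes. Fen1, the flap nuclease that trims those fragments, had a 95% interval of -0.23 to 0.06.

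Genes of nucleotide supply held the largest positive difference of the module. Tyms, which makes thymidylate, was 11.76, 11.60, 11.75 and 11.50 in WT and 11.76, 11.84, 11.89 and 11.96 in KO replicates 1 to 4. KO replicate 1 tied with the highest WT value, and the other 3 lay above it. The difference was 0.21 ± 0.0703 (SE, 95% interval 0.05 to 0.37) and did not pass (limma adjusted p = 0.171; 0.0617 without KO replicate 1). Dut, the dUTPase that supplies the precursor of thymidylate and keeps uracil out of DNA, separated the other way, except with centred arrays: 10.89, 10.81, 10.81 and 10.79 in WT and 10.63, 10.71, 10.75 and 10.76 in KO replicates 1 to 4. Its difference of -0.11 (95% interval -0.22 to -0.01) did not pass (limma adjusted p = 0.276). The ribonucleotide reductase genes Rrm1 and Rrm2 and the thymidine kinase gene Tk1 differed by 0.03, 0.02 and 0.02, and the second probe set of Tk1 by -0.05.

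The S-phase regulators lay between -0.02 and 0.08. E2f1, a transcription factor that drives many genes of the module, was 10.98, 11.01, 11.08 and 11.06 in WT and 11.03, 11.04, 11.20 and 11.16 in KO replicates 1 to 4, overlapping groups with a difference of 0.08 (95% interval -0.05 to 0.20; limma adjusted p = 0.561). Slbp, the protein that binds the stem-loop of histone messages, was 11.23, 11.16, 11.15 and 11.24 against 11.08, 11.21, 11.31 and 11.35 (difference 0.04, limma adjusted p = 0.823; 0.10 without KO replicate 1, 0.245; 0.10 on its second probe set). E2f2, Uhrf1, which reads hemimethylated DNA behind the fork, and the maintenance methyltransferase gene Dnmt1 differed by 0.03, 0.02 and -0.02.

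**Figure D2:**
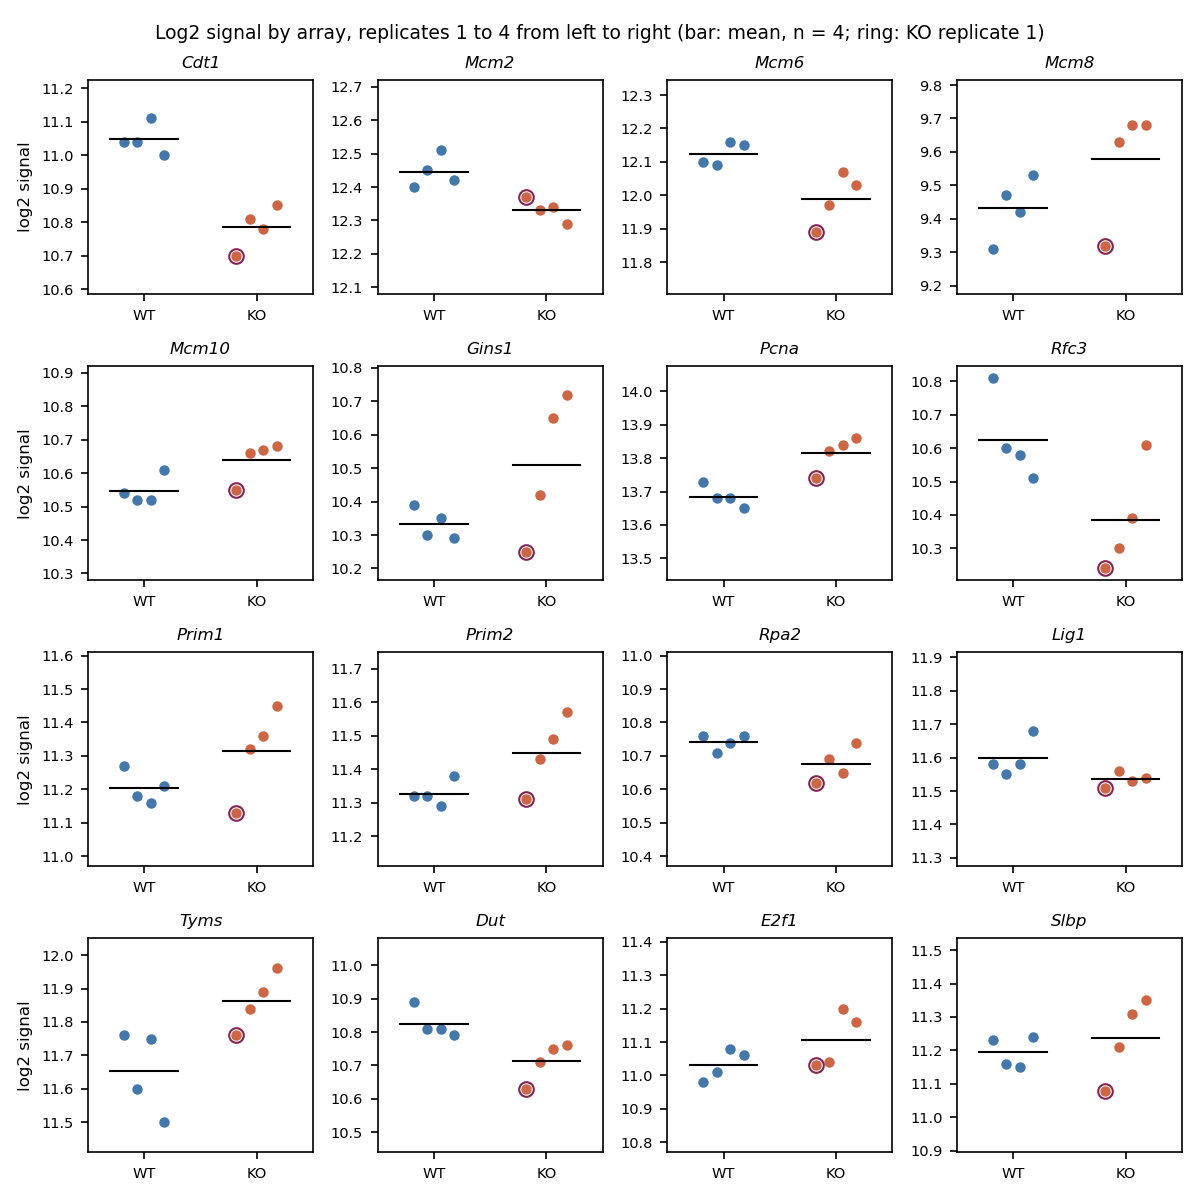
Log2 signal (y axis, the same span in every panel) of 16 replication genes in the 4 WT-labelled (blue) and 4 KO-labelled (red) arrays, with the group mean as a bar and KO replicate 1 ringed. The groups do not overlap in Cdt1, Mcm2, Mcm6, Pcna and Dut on the deposited scale plotted (with centred arrays, in Cdt1 and Mcm2 alone), and in Mcm8, Gins1, Prim1 and Prim2 the ringed array lies within or below the range of the WT-labelled arrays.

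KO replicate 1 was lower than the other 3 KO-labelled arrays in most of the module. It was the lowest KO-labelled array in 46 of 54 genes (85.2%), against 53.8% of all tested genes, and the highest in 2, Mcm2 and Rfc5. It lay a median of 0.12 log2 units below the mean of KO replicates 2 to 4, and at the extreme 0.43 below it, in Gins3. Relative to the WT mean of each gene, the median of the module was -0.07 in KO replicate 1 and 0.04, 0.07 and 0.06 in KO replicates 2, 3 and 4. In those 3 arrays 35, 40 and 43 of the 54 genes lay above the WT mean, and in KO replicate 1, 10 did. Of all tested genes 40.3%, 47.4% and 51.1% did in those 3 arrays, and 35.9% in KO replicate 1. For all tested genes the medians were -0.06, -0.03, -0.01 and 0.01, and KO replicate 1 had the lowest of these too.

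Without KO replicate 1 most differences were positive and few genes passed. The median difference was 0.06 (all tested genes -0.01), with 41 of 54 positive in place of 34. Of all tested genes 45.5% were positive, in place of 42.1%. KO replicate 1 was the lowest KO-labelled array in 46 of 54 genes, so leaving it out raises most differences, and this shift is in part built in. In 30 genes the difference moved by over 1.5 times or changed sign. Of these, 7 turned positive (Orc4, Orc5, Mcm4, Cdc45, Cdc7, Gins3 and Rpa3) and none turned negative. Of the 7, Rpa3 moved from -0.01 to 0.08, Orc5 from less than 0.01 in size to 0.06, and Orc4 from -0.05 to less than 0.01. Other small differences that grew included Pola1 (0.05 to 0.12), Pole (0.04 to 0.09), Pole2 (0.08 to 0.13) and Tk1 (0.02 to 0.07), with limma adjusted p from 0.202 to 0.575. Calls numbered 2, Mcm8 higher and Cdt1 lower, against 6.56% of all genes. All KO-labelled values lay above all WT-labelled values in 15 genes and below in 4, against 11.3% and 11.2% of all genes. The 15 were Orc2, Orc3, Gmnn, Mcm8, Mcm10, Dbf4, Gins1, Gins3, Pcna, Pola2, Prim1, Prim2, Pold3, Rrm2 and Tyms, and the 4 were the same Cdt1, Mcm2, Mcm6 and Dut that separated over 8 arrays. Limma's array weights gave KO replicate 1 a weight of 0.176, against 0.617 to 3.32 for the others. With them 11 genes passed, against 16.6% of all genes. Of the 11, 8 were higher (Mcm8, Mcm10, Dbf4, Gins1, Pcna, Prim1, Prim2 and Tyms) and 3 lower (Cdt1, Mcm2 and Rfc3).

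**Figure D3:**
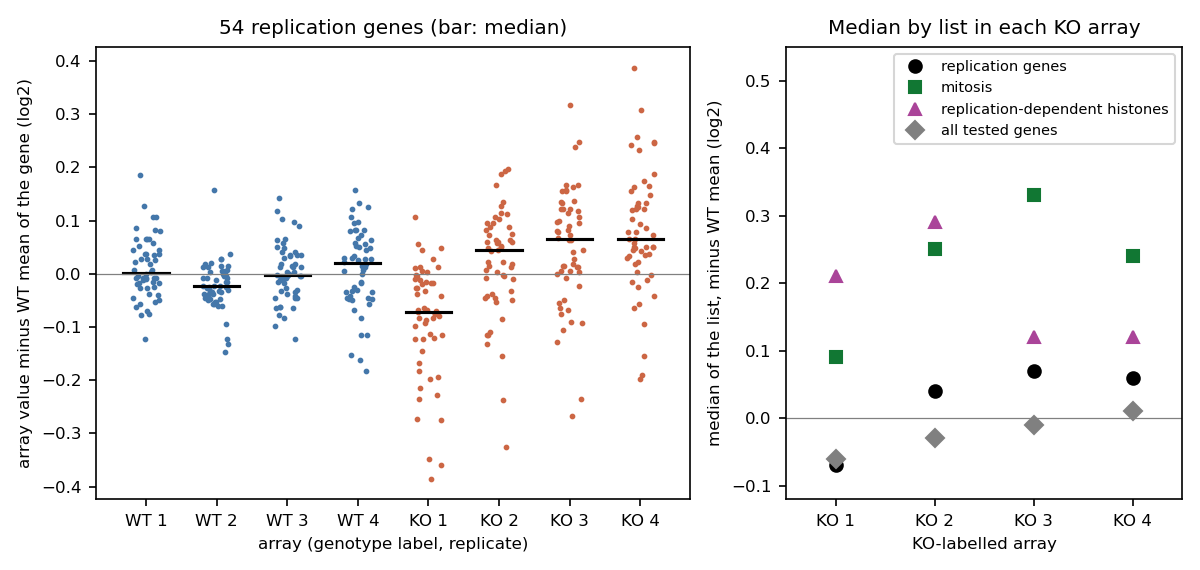
Left, value of each of the 54 replication genes in each array minus the WT mean of that gene (log2, y axis), with the median as a bar. Right, medians of the replication, mitosis and histone lists and of all tested genes in the 4 KO-labelled arrays on the same scale: the replication genes stand at -0.07 in KO replicate 1 and at 0.04 to 0.07 in the other 3.

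The rest of the replication pathway was listed by function. Of 72 further genes listed (initiation and fork, chromatin assembly, nucleotide enzymes, and E2F, DREAM and S-phase control), 70 could be tested and none passed over 8 arrays with limma; at an unadjusted limma p under 0.05 there were 11 higher and 7 lower of 70, against 6.15% and 10.5% of all genes. Their median difference was 0.03. The smallest p by list belonged to Pold4, a polymerase delta subunit (-0.22, limma adjusted p = 0.109), Chaf1b, a histone chaperone of the fork (0.17, 0.0927), Dctpp1, which breaks down dCTP (0.19, 0.0697), and Ccna2, the cyclin of S and G2 phases (0.22, 0.0763). Without KO replicate 1, against 3.88% of all genes higher and 2.67% lower, 8 of 70 rose and none fell: Ticrr, Top2a, Chaf1b, Dctpp1, E2f8, Ccne2, Ccna2 and Skp2, with limma adjusted p from 0.0147 (Ccne2) to 0.0446 (Skp2).

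Genes of mitosis and the replication-dependent histones stood higher than the replication genes by their medians. The median difference was 0.24 over 23 mitosis genes (21 positive, 2 passed) and 0.18 over 19 histone genes (17 positive, 1 passed), against 0.02 over the module; these calls were all higher, as were 0.646% of all genes. Without KO replicate 1 the medians were 0.27, 0.18 and 0.06, and 14 mitosis genes, 2 histone genes and 1 replication gene rose, against 3.88% of all genes. In KO replicate 1 itself the mitosis median lay 0.09 and the histone median 0.21 above the WT mean, where the replication median lay below it. The mitosis median of WT replicate 3 lay 0.08 above that mean. The histone medians of the WT-labelled arrays ran from -0.03 to 0.02. The genes that passed over 8 arrays, named here after their values were seen, were Nusap1, a spindle protein (0.49, limma adjusted p = 0.0182), Cenpe, a kinetochore motor (0.43, 0.0462), and the histone H3 gene H3c15 (1.01, 0.0461). Each call could be lost by leaving out 1 array, with limma adjusted p up to 0.0908, 0.161 and 0.146. H3c15 was 7.08, 7.08, 6.83 and 7.24 in WT replicates 1 to 4, near the filter level of 6.91 to 7.15. Its KO-labelled values, 7.39 to 8.4, would pass the filter alone. Of the histones below 0, H2bc4 had the largest difference (-0.51, limma adjusted p = 0.191). The differences between these lists were not tested, and genes measured on the same arrays are not independent.

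**Figure D4:**
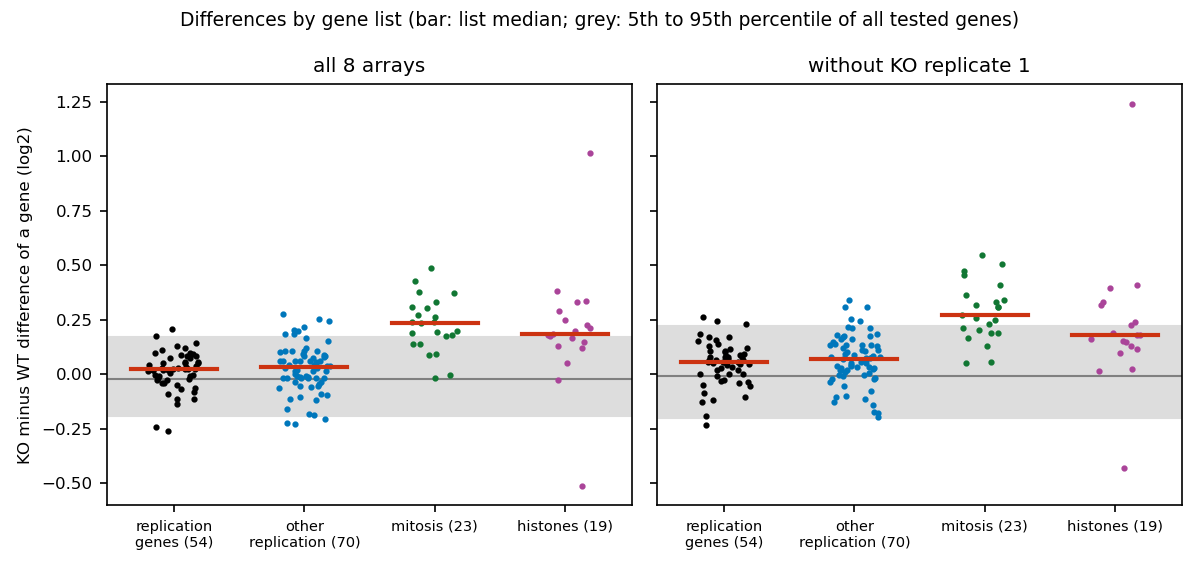
KO minus WT difference of each gene (log2, y axis) in 4 lists, over all 8 arrays (left) and without KO replicate 1 (right); red bars are list medians, and the grey band spans the 5th to 95th percentile of all tested genes (-0.19 to 0.17 and -0.20 to 0.22). The replication medians of 0.02 and 0.06 lie inside the band, and the mitosis medians of 0.24 and 0.27 above it. The histone median of 0.18 lies just above the band on the left and inside it on the right. The band describes single genes and not medians of lists.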

How the data were processed

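The deposited values are log2 signals, 1 for each probe set on each array. The submitters' processing notes name RMA and Partek; versions, the order of steps and the genome build are not given in the sources used here. Per the deposited table, the log2 medians of the arrays were 7.35 to 7.42. If RMA included its usual quantile step, a change in overall RNA content would not show. Of 35556 probe sets, 21789 had 1 gene symbol, 1621 several and 12146 none in the platform annotation; only the first were used. Genes were tested where the value exceeded the 40th percentile of probe sets with 1 symbol in at least 4 arrays. Groups came from the sample titles. KO was compared with WT by limma 3.58.1 in R 4.3.3 (lmFit, eBayes, two-sided, no block) with Benjamini-Hochberg adjustment over 11926 genes at 0.05, and by exact permutation for single genes. The limma fit was also run on simulated data, with independent noise of equal spread in every array. The simulated shifts were larger than any difference of the module. That run therefore does not cover differences of this size or a deviating array. The number of arrays limits the precision.

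The module and all lists were chosen with earlier results of these data known. Values in all arrays are given for replication genes past the threshold with or without KO replicate 1, for those with separate groups, and for the 2 of smallest p in each role group. Other listed genes are named if past the threshold, or else by the smallest p. The alternatives covered normalization, centring, filter, probe-set choice, variance model, array weights, replicate block, threshold and arrays left out. A planned search of protein sequences was not run. Promoters are from RefSeq (GRCm38.p6).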

Additional observations from a re-analysis of the deposited data

Results flagged for a closer look

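In 8 of 108 groups of 4 values (54 replication genes in both genotype labels), 1 array lay far from the other 3; chance gives about 1 in 20, or 5.4. Of the 8, 6 were low values of KO replicate 1: Orc5 (9.76, the others 9.98 to 10.02), Mcm8 (9.32, the others 9.63 to 9.68), Mcm10 (10.55, the others 10.66 to 10.68), Gins3 (9.58, the others 9.99 to 10.03), Pola1 (10.35, the others 10.59 to 10.63) and Rrm2 (12.30, the others 12.42 to 12.44). The remaining 2 were in WT replicate 3: Gmnn was low there (8.49, the others all 8.60), and Pold1, the catalytic subunit of polymerase delta, was high (11.42, the others 11.21 to 11.24). These groups come from the same arrays and are not independent. KO replicate 1 was also the lowest KO-labelled array in 53.8% of all tested genes. What sets these arrays apart was not tested.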

How the results depend on the processing

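The calls depended on single arrays, and differences of this size are at the limit of 4 arrays per group. Over all genes 157 passed; the count was 322 with a further quantile normalization, 78 with centred arrays, 58 with no filter, 354 with an intensity trend and robust prior, 1980 with array weights, 443 without KO replicate 1 and WT replicate 3 together, 468 and 27 at adjusted p under 0.1 and 0.01, and 31 (without WT replicate 2) to 782 (without KO replicate 1) with 1 array left out. Replication genes past the threshold numbered 0 with centred arrays, with no filter and at 0.01, 2 with the trend, 11 with array weights, and 0 to 2 with 1 array left out. Other replication genes numbered 3, 1, 3, 20, 5 and 3 with quantile normalization, the filter at the 50th percentile, the trend, array weights, the double omission and a threshold of 0.1, and 0 to 8 with 1 array left out. The filter at the 50th percentile gave 229 over all genes, from a smaller set of tested genes. Replication genes with separate groups numbered 9 with quantile normalization (6 above, 3 below), 2 with centred arrays (both below), 21 with the double omission, and 5 to 19 with 1 array left out. Of all tested genes, 5.79% lay above and 7.22% below with quantile normalization, and 2.44% and 5.24% with centred arrays. Without KO replicate 1, which gave the 19, the shares were 11.3% and 11.2%. For the double omission and the other single omissions the share was not counted, and smaller groups separate more readily. The median difference of the module stayed between 0.007 and 0.062. The 16 replication genes given in every array by rule kept their sign under all 17 refits. They were picked from these data partly by small p, so a kept sign is in part built in. Of the other replication genes, 7 turned positive without KO replicate 1, and others changed sign when a different array was left out. Across single omissions Orc1 ran from -0.01 to 0.07, Orc6 from -0.06 to 0.03 and Tk1 from -0.04 to 0.07. With centred arrays 38 of 54 differences were positive, in place of 34. Same-numbered arrays deviated together at correlations of 0.011, 0.145, -0.174 and 0.308, and 4 of 8 arrays correlated best with their own number, so the numbers were not taken as pairs; with the replicate block 36 genes and 0 replication genes passed. The cause of these changes was not tested.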

Other observations

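The replication genes Rfc4, Cdc45 and Mcm4 lie on chromosome 16 with Bcl6 in the RefSeq gene order, and none separated by genotype label. Rfc4, a clamp loader subunit, is the nearest, with 4 tested genes between it and Bcl6, and differed by 0.05 (95% interval -0.07 to 0.17, limma adjusted p = 0.701). Cdc45, with 41 tested genes between, differed by -0.01 (limma adjusted p = 0.948), and Mcm4, with 89 between, by less than 0.01 in size (limma adjusted p = 0.991). The 8 values of Rfc4 were 12.69, 12.60, 12.64 and 12.49 in WT and 12.65, 12.70, 12.61 and 12.67 in KO replicates 1 to 4.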
